A study of Homo sapiens with 12 samples.

Results

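The mitotic kinesins are motor proteins that build the spindle, move chromosomes and complete cell division. The 10 genes described here are KIF2C, KIF4A, KIF11, KIF14, KIF15, KIF18A, KIF20A, KIF20B, KIF23 and KIFC1, and all gene probes that carry 1 of these names in the design of the array were taken, 11 of 41000 probes for 10 of 29123 gene names. KIF11 had 2 probes and each other gene had 1. HuH-7 cells, a line derived from a hepatocellular carcinoma that carries mutant p53 (Y220C), were treated for 24 h with the solvent DMSO alone, with 28 µM SLMP53-2 or with 42 µM SLMP53-2, a compound selected as a reactivator of mutant p53. The doses are 2 and 3 times the IC50, and 1 label of the higher dose gives 48 µM in place of 42 µM. RNA of 4 biological replicates per group was measured on 12 arrays of 1 colour on 5 slides, and all groups share the cell line, its p53 mutation and the solvent. Where the values are given for a group, they follow the replicate numbers of the labels.

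Kinesins walk along microtubules by hydrolysing ATP, or take microtubules apart at their ends. During mitosis some of them slide the spindle poles apart, others align the chromosomes, and others bundle the midzone where the cell will be cut. The genes of this machinery are transcribed mainly in the G2 and M phases of the cell cycle, and many of their promoters carry a CCAAT box, bound by NF-Y, and a cell cycle homology region, bound by the DREAM and MuvB complexes.

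The promoters of these genes are shown first. They are taken from RefSeq on GRCh38.p14, which held a window for 10 of 10 genes, from 250 bases before to 50 bases after the annotated start. The letters TTTGAA or TTCGAA, the cell cycle homology region, were found on either strand in 8 of the 10 windows (80.0%), against 16.4% of all 35116 windows. Every match in these genes was TTTGAA, and KIF2C and KIF20A had none. CCAAT was found in 8 of 10 windows, in all but KIF2C and KIF15, against 34.6% of all windows. The E2F motif TTTGGCG or TTTCGCG was found in 2 of 10, KIF11 and KIF15, against 3.19%. No match of one motif overlapped a match of another. These are matches of letters only, and the genes' promoters were not measured on the arrays. A link between the motifs and the changes below was not tested.

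The following 100 bases end at the base before the start, in the direction of the gene. Capitals mark the cell cycle homology region (TTTGAA, or TTCAAA where it lies on the other strand) and the CCAAT box (CCAAT, or ATTGG on the other strand). In the first 5 both the region and, except in KIF15, the box lie in this stretch.
KIF4A (chrX:70290004-70290103, plus strand): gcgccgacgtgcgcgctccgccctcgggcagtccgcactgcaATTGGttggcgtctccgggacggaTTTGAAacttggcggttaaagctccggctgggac
KIF11 (chr10:92593030-92593129, plus strand): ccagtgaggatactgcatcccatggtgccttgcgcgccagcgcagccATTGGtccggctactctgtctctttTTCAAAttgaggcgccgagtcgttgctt
KIF15 (chr3:44761694-44761793, plus strand): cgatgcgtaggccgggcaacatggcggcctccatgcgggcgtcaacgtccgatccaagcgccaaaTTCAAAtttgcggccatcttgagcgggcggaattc
KIF18A (chr11:28108157-28108256, minus strand): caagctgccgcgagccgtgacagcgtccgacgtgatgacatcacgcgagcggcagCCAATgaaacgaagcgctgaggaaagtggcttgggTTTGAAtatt
KIF23 (chr15:69414249-69414348, plus strand): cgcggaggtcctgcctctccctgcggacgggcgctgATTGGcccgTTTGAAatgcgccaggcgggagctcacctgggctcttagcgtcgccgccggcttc
KIF20A is shown for its CCAAT boxes without a homology region, and KIF2C for having neither.
KIF20A (chr5:138179012-138179111, plus strand): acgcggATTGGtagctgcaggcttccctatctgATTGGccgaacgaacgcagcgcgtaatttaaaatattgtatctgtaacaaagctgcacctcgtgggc
KIF2C (chr1:44739737-44739836, plus strand): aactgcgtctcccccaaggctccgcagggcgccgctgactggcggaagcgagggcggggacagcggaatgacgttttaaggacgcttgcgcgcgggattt
In KIF14, KIF20B and KIFC1 the homology region lies after the start, and 30 bases around it are given. In KIF20B a second match follows directly.
KIF14 (chr1:200620733-200620762, minus strand): gcggggcgcccaTTCAAAttgcggccttct
KIF20B (chr10:89701602-89701631, plus strand): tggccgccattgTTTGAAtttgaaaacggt
KIFC1 (chr6:33391815-33391844, plus strand): tggccgttggaaTTCAAAagtggcgggtgt

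**Figure D1:**
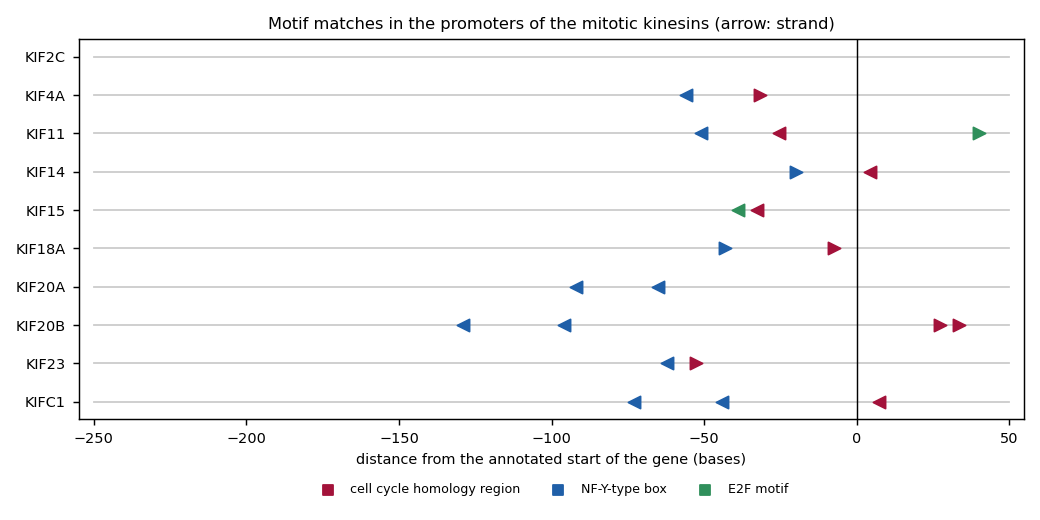
Positions of motif matches in the 10 promoter windows, as distance in bases from the annotated start (vertical line), with the arrow giving the strand of the match. The homology region lies between −55 (KIF23) and 36 (KIF20B), the NF-Y-type box (CCAAT) before the start in all 8 genes that have it, and KIF2C has no match.

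The 11 probes were well above background on all 12 arrays, none was saturated or flagged as an outlier, and all 11 entered the test. The weakest spot, for KIF14 at 42 µM, was 2.64 times as bright as its local background. Over the whole array 65.0% to 85.0% of gene spots were well above background. Of 7 hepatocyte and hepatoma markers ALB read 15.91 to 16.37 and AFP 12.75 to 13.86 on the log2 scale, and all 7 were detected on at least 11 of 12 arrays. The leukocyte marker PTPRC was detected on 0 of 12 arrays, while CD3E, CD14, COL1A2 and VWF were above background on all 12, PECAM1 on 11 and COL1A1 on 6. Values below are log2 intensities after background correction and quantile normalization. A level belongs to its probe, so that levels of different genes are not compared.

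At 42 µM the mitotic kinesins were lower than on DMSO, with all 11 probes below 0 (52.5% of all probes were) and a median log2 change of −1.14, where the median of all 33467 tested probes was −0.013. The 42 µM means were 39.0% to 61.8% of the DMSO means. In RNA of a whole culture, fewer cells in mitosis and less of these RNAs per cell cannot be told apart. Called lower were 7 of 11 probes, for 6 of 10 genes (KIF2C, KIF11, KIF14, KIF18A, KIF23 and KIFC1), at an adjusted p below 0.05 in limma and a log2 change of at least 0.6, against 1.23% of all probes called lower. KIF4A, KIF15, KIF20A and KIF20B missed the adjusted threshold, and 0 of the 11 were called higher, against 1.41% of all. Without adjustment all 11 probes passed a p of 0.05 and the limit on the change, against 2.1% of all probes. Every 42 µM array lay below every DMSO array in 10 of 11 probes, against 6.49% of all probes, and KIF20B was the exception. With the slide as a block limma called 0 of 10 genes, while all 11 probes kept an unadjusted p below 0.05, the median change was −1.19, and 1 probe of the whole array was called lower. With the slide as a random block it called 8 of 10 genes, with a median change of −1.15, and 513 probes of the whole array, against 413 without a block.

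**Figure D2:**
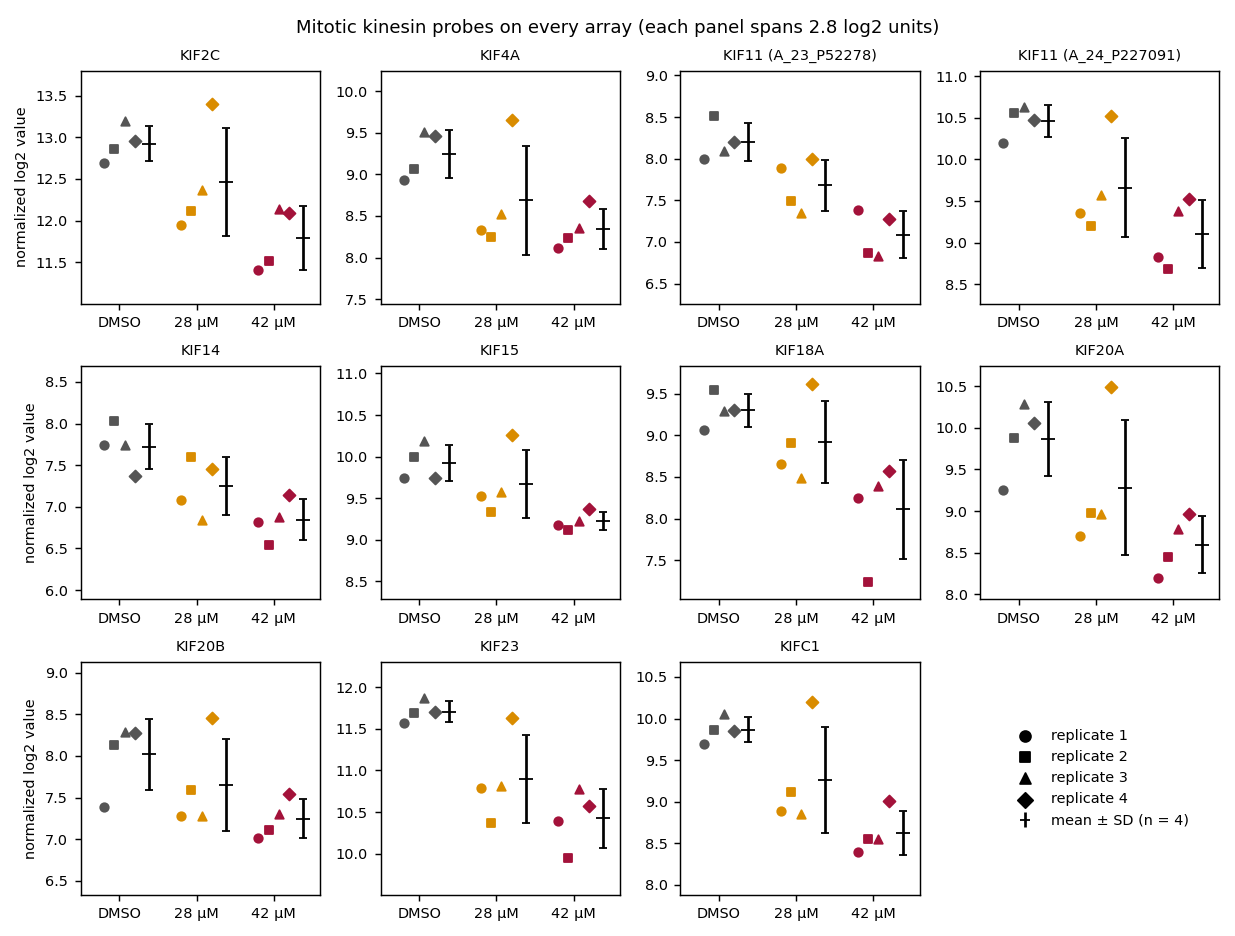
Normalized log2 value of each mitotic kinesin probe on all 12 arrays by group, with symbols for the replicates and a bar for the mean ± SD (n = 4). At 42 µM all 4 arrays sit below all 4 DMSO arrays in every panel but KIF20B. Replicate 4 of 28 µM sits among the DMSO arrays or above them.

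The spindle pole motors come first. KIF11, also called Eg5, slides antiparallel microtubules and pushes the poles apart, and it is the target of several antimitotic compounds. Its probe A_24_P227091 (hg19 chr10:94414627-94414686, plus strand) read 10.19, 10.55, 10.63 and 10.47 on DMSO replicates 1 to 4, 9.35, 9.21, 9.57 and 10.52 at 28 µM and 8.83, 8.68, 9.38 and 9.52 at 42 µM. The 4 arrays of 42 µM lay below all DMSO arrays, and 3 of the 4 of 28 µM did so too. The change at 42 µM was −1.36 (SE 0.26, adjusted p = 0.0179 by limma), to 39.0% of DMSO. The other probe of KIF11, A_23_P52278 (chr10:94413464-94413523), read 7.99, 8.51, 8.09 and 8.21 on DMSO replicates 1 to 4, 7.88, 7.50, 7.35 and 8.00 at 28 µM and 7.38, 6.86, 6.83 and 7.28 at 42 µM. It was lower on every 42 µM array than on any DMSO array, with a change of −1.11 (SE 0.18, adjusted p = 0.0126 by limma). Both probes were therefore called. Their changes differed by 0.25 at 42 µM and 0.28 at 28 µM, with an exact two-sided permutation p of 0.429 and 0.314 (adjusted p = 0.429 for both) over 70 splits, which can give 0.0286 at the least.

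KIF15 keeps spindles bipolar when KIF11 is inhibited. Its probe (chr3:44894386-44894445, plus strand) read 9.74, 10.00, 10.19 and 9.75 on DMSO replicates 1 to 4, 9.53, 9.33, 9.58 and 10.26 at 28 µM and 9.18, 9.12, 9.23 and 9.37 at 42 µM. The 42 µM arrays were below all DMSO arrays and lay close together, with an SD of 0.11 (n = 4). KIF15 had the smallest change of the 10 genes, −0.69 (SE 0.18), to 61.8% of DMSO, and missed the threshold (adjusted p = 0.0559 by limma). KIFC1, a minus-end-directed motor that focuses the poles and clusters extra centrosomes, is read by a probe (chr6:33374428-33374621, plus strand) whose 60 bases span 194 bases of the genome. It read 9.70, 9.86, 10.06 and 9.85 on DMSO replicates 1 to 4, 8.89, 9.11, 8.86 and 10.20 at 28 µM and 8.39, 8.55, 8.55 and 9.01 at 42 µM. The DMSO arrays lay within a narrow range and all 42 µM arrays were below them, as were 3 of 4 arrays at 28 µM. The change at 42 µM was −1.24 (SE 0.25, adjusted p = 0.0209 by limma).

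The motors that act on chromosomes are KIF2C, KIF4A and KIF18A. KIF2C, or MCAK, takes microtubules apart at centromeres and so removes faulty attachments. Its probe (chr1:45233066-45233125, plus strand) read 12.69, 12.86, 13.20 and 12.95 on DMSO replicates 1 to 4, 11.95, 12.12, 12.37 and 13.40 at 28 µM and 11.41, 11.51, 12.14 and 12.09 at 42 µM. It was lower on all 42 µM arrays than on any DMSO array, by −1.14 in the mean (SE 0.28, adjusted p = 0.0429 by limma), and replicate 4 at 28 µM was higher than every DMSO array. KIF4A is a chromokinesin that binds chromatin and, with PRC1, limits microtubule growth at the midzone. Its probe (chrX:69640147-69640206, plus strand) read 8.93, 9.07, 9.51 and 9.46 on DMSO replicates 1 to 4, 8.33, 8.25, 8.53 and 9.66 at 28 µM and 8.12, 8.24, 8.36 and 8.68 at 42 µM. The 42 µM and DMSO arrays did not overlap, but the change of −0.89 (SE 0.27) missed the threshold (adjusted p = 0.0959 by limma). KIF4B, a near-identical copy of KIF4A, could share the signal of this probe, which was not tested.

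KIF18A dampens the movement of chromosomes and aligns them at the metaphase plate. Its probe (chr11:28045342-28056937, minus strand) read 9.06, 9.55, 9.29 and 9.30 on DMSO replicates 1 to 4, 8.66, 8.91, 8.49 and 9.62 at 28 µM and 8.25, 7.24, 8.40 and 8.57 at 42 µM. At 42 µM replicate 2 stood well below the other 3 arrays, and all 4 were under the DMSO arrays. The change was −1.19 (SE 0.28, adjusted p = 0.0400 by limma). Without that replicate the change was −0.90 and the gene was no longer called. In that fit 0 probes of the whole array were called lower.

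The remaining 4 genes serve the central spindle and cytokinesis. KIF23, or MKLP1, forms centralspindlin with RACGAP1 and bundles the midzone. Its probe (chr15:69740524-69740583, plus strand) read 11.57, 11.69, 11.87 and 11.70 on DMSO replicates 1 to 4, 10.79, 10.36, 10.81 and 11.63 at 28 µM and 10.40, 9.94, 10.78 and 10.58 at 42 µM. The DMSO arrays had the smallest spread of all 11 probes, with an SD of 0.12 (n = 4), and all 42 µM arrays lay below them. The change was −1.28 (SE 0.23, adjusted p = 0.0159 by limma), to 41.1% of DMSO. KIF20A, or MKLP2, carries the chromosomal passenger complex from the chromosomes to the midzone. Its probe (chr5:137522081-137522804, plus strand) is printed on 10 spots of each array, and their average read 9.25, 9.88, 10.29 and 10.06 on DMSO replicates 1 to 4, 8.70, 8.98, 8.96 and 10.49 at 28 µM and 8.19, 8.44, 8.78 and 8.96 at 42 µM. The groups of 42 µM and DMSO did not overlap, and the spread within DMSO was the largest of the 11 probes, with an SD of 0.44 (n = 4). The change of −1.28 (SE 0.34) was as large as that of KIF23 but missed the threshold (adjusted p = 0.0651 by limma).

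KIF14 acts with citron kinase in the last steps of cytokinesis. Its probe (chr1:200522589-200522648, minus strand) read 7.74, 8.04, 7.74 and 7.37 on DMSO replicates 1 to 4, 7.08, 7.60, 6.85 and 7.46 at 28 µM and 6.81, 6.55, 6.88 and 7.14 at 42 µM. It was lower on every 42 µM array than on any DMSO array, with a change of −0.88 (SE 0.19, adjusted p = 0.0271 by limma). KIF20B, or MPP1, also acts in cytokinesis. Its probe (chr10:91534055-91534114, plus strand) read 7.39, 8.13, 8.29 and 8.28 on DMSO replicates 1 to 4, 7.28, 7.60, 7.28 and 8.45 at 28 µM and 7.02, 7.11, 7.30 and 7.55 at 42 µM. DMSO replicate 1 lay below 42 µM replicate 4, the single overlap between these groups among the 11 probes, and the change of −0.78 (SE 0.26) missed the threshold (adjusted p = 0.144 by limma).

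The probes of KIF18A, KIF20A and KIFC1 span more of the genome than their own length, so that each crosses an intron and reads spliced RNA. They are given 5′ to 3′ as designed, with no capitals. Exon numbers and UTRs were not used here.
KIF18A probe: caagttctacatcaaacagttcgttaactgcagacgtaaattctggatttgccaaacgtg
KIF20A probe: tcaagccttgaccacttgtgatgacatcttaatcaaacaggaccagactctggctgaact
KIFC1 probe: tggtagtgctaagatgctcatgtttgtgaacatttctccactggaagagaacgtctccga

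At 28 µM the 11 probes were also below DMSO on average (52.5% of all probes were), with changes from −0.81 (KIF23) to −0.25 (KIF15) and a median of −0.52, but limma called 0 of 11, as it called 0 of all probes (0%). The smallest adjusted p was 0.231, for KIF23. At an unadjusted p below 0.05 and a change of at least 0.6, KIF11 (A_24_P227091), KIF23 and KIFC1 were lower, 3 of 11 probes against 1.02% of all. In 0 of 11 probes did all 28 µM arrays lie below all DMSO arrays, against 2.68% of all probes.

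The 28 µM group was not uniform. On each array the value of a gene minus its DMSO mean was taken, and the median over the 10 genes was −0.91 on replicate 1, −0.78 on replicate 2 and −0.84 on replicate 3, but 0.34 on replicate 4. The DMSO arrays ranged from −0.24 to 0.23 and the 42 µM arrays from −1.36 to −0.78. Replicate 4 was the highest of its group in 10 of 11 probes and above every DMSO array in 7, whereas replicates 1 and 3 were below every DMSO array in 11 of 11 probes and replicate 2 in 9. KIF14 was the probe in which replicate 2, not replicate 4, was the highest. The shares of all probes that belong beside these counts per array were not computed. Spots well above background made up 83.4% on replicate 4, between the 85.0% of replicate 1 and the 72.2% of replicate 2, and the part of this share in the result was not tested.

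Replicate 4 is left out in the following because of its values, those of these probes included, so that the p-values without it do not allow for that choice and are given as a description. Without 28 µM replicate 4, 5 of 10 genes were called lower at 28 µM, against 0.84% of all probes. They were KIF11 by its probe A_24_P227091 (−1.08, SE 0.20, adjusted p = 0.0159), KIF23 (−1.05, SE 0.19, adjusted p = 0.0125), KIF20A (−0.99, SE 0.24, adjusted p = 0.0485), KIFC1 (−0.91, SE 0.15, adjusted p = 0.00943) and KIF4A (−0.87, SE 0.17, adjusted p = 0.0223), all by limma. The other probe of KIF11 changed by −0.62 (SE 0.19) and missed the threshold (adjusted p = 0.114 by limma). KIF2C, KIF14, KIF15, KIF18A and KIF20B missed it as well, with changes from −0.78 to −0.44. The median of the 11 probes was then −0.78, 9 of 11 passed an unadjusted p of 0.05 and the limit on the change (1.86% of all), and the 3 remaining arrays lay below all DMSO arrays in 9 of 11 probes, against 7.45% of all. The same array also entered the spread for the higher dose: without it the changes at 42 µM were the same but all 11 probes, for 10 of 10 genes, were called lower, against 1.64% of all probes. Both doses are compared with the same DMSO arrays, so that these results are not independent of each other.

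**Figure D3:**
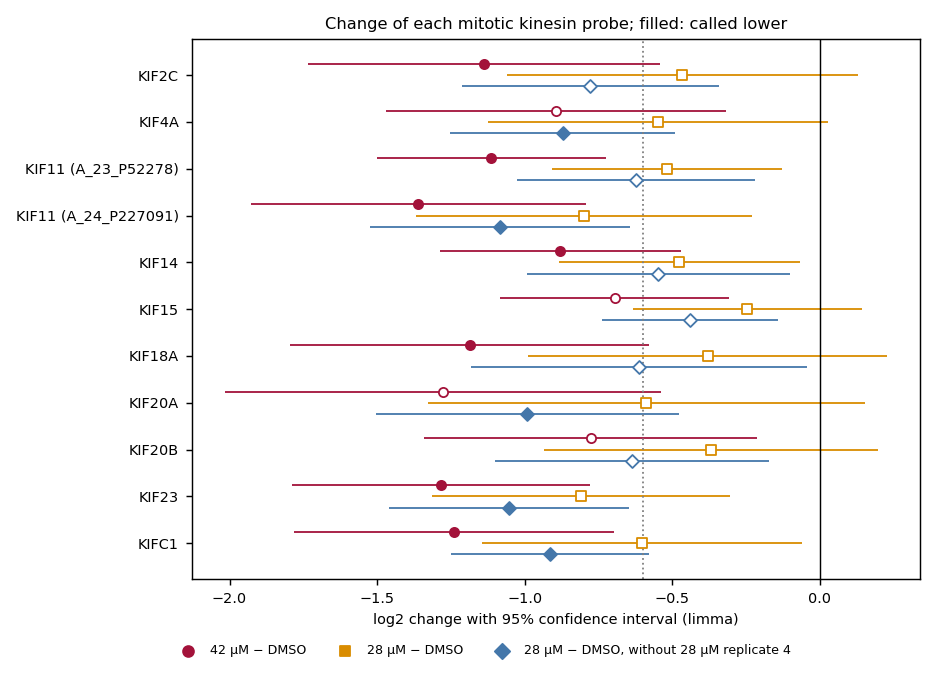
Log2 change of each probe (points) with the 95% confidence interval from limma (bars), at 42 µM and 28 µM against DMSO and at 28 µM without replicate 4. Filled points were called lower, the dotted line marks a change of −0.6, and all points lie below 0.

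With all arrays the group means fell from DMSO to 28 µM to 42 µM in all 11 probes. The share of all probes with this order was not computed. Between the doses the change from 28 µM to 42 µM ranged from −0.81 (KIF18A) to −0.34 (KIF4A), with all 11 below 0 (46.2% of all probes were) and a median of −0.56, where the median of all probes was 0.014. limma called 0 of 11 probes (0% of all), and 3 of 11 had an unadjusted p below 0.05 and a change of at least 0.6, KIF2C, KIF18A and KIFC1, against 0.167% of all. The widest of the 95% intervals, of KIF20A, ran from −1.43 to 0.05. Without replicate 4 of 28 µM the median was −0.29, with 0 of 11 probes past an unadjusted p of 0.05 and that limit (0.117% of all). KIF4A then changed by −0.022 between the doses (95% confidence interval −0.40 to 0.36) and KIF18A by −0.57 (−1.14 to −0.004).

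Arrays on the same slide gave the same direction at 42 µM. The 42 µM array was lower than the DMSO array in 11 of 11 probes on each of the 3 slides that held both, with median differences of −1.30, −1.51 and −1.10. For 28 µM the 2 slides with replicates 3 and 1 gave −0.57 and −0.96, 11 of 11 lower on each, and the slide with replicate 4 gave 0.15, with 4 of 11 lower. Between the doses the slides gave −0.41 (11 of 11 lower), −0.026 (7 of 11) and, for 28 µM replicate 4, −1.65 (11 of 11). Each slide gives a single pair of arrays per comparison. The shares of all probes that were lower in these pairs were not computed.

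The number of genes called at 42 µM depended on single arrays, while the changes did not turn. It was 0 of 10 without DMSO replicate 2 and without 42 µM replicate 2, where all 11 probes kept an unadjusted p below 0.05 and a change of at least 0.6, and where 0 probes of the whole array were called lower. It was 2 without DMSO replicate 1, DMSO replicate 3, 42 µM replicate 1 or 42 µM replicate 3, and 3 without DMSO replicate 4. In these fits the probes of the whole array called lower numbered 128, 205, 226, 264 and 162, in that order, against 413 with all arrays. Without 28 µM replicate 4 the count was 10, with 550 probes of the whole array, and without any of the other arrays it was 5 to 7, with 311 to 434 probes. The median change stayed between −1.24 and −1.04.

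**Figure D4:**
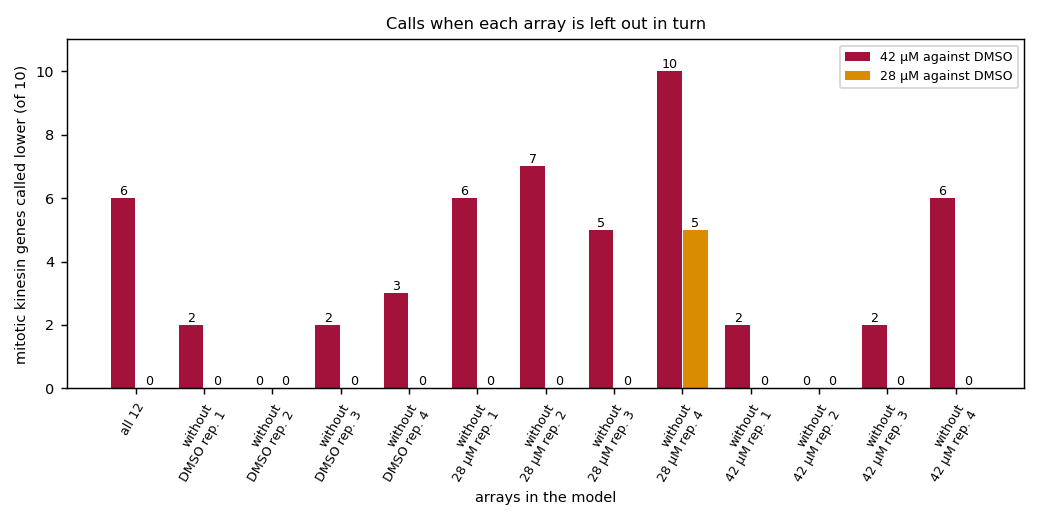
Number of mitotic kinesin genes (of 10) called lower than on DMSO with all 12 arrays and with each array left out in turn, for 42 µM and 28 µM. The count at 42 µM ran from 0 to 10, and the count at 28 µM was 5 without its replicate 4 and 0 in every other model.

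Of the other mitotic kinesins 3 of 5 were below 0 at 42 µM, where 52.5% of all probes were below 0 and 1.23% were called lower. CENPE, the centromere motor that carries chromosomes to the spindle equator, changed by −1.82 at 42 µM (SE 0.28, adjusted p = 0.0112 by limma) and was the 1 called gene of 5 tested, with a larger change than any of the 10 genes above. KIF22, a chromokinesin, changed by −0.94 (SE 0.29, adjusted p = 0.108) and KIF18B, a motor of astral microtubule ends, by −0.81 (SE 0.39, adjusted p = 0.352). KIF2A, a relative of KIF2C that also works outside mitosis, changed by 0.023 and KIF24, a centriole kinesin, by 0.12, and neither was called. KIF24 was dim, with a mean of 6.12 on DMSO. It was well above background on only 2 of 4 arrays of DMSO and 2 of 4 of 42 µM, so that a fall could be missed. KIF2B did not pass the filter on dim probes. At 28 µM 0 of the 5 were called. Without replicate 4 CENPE was called (−1.41, SE 0.16, adjusted p = 0.00126 by limma), against 0.84% of all probes called lower.

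The transport and other kinesins, which include carriers of vesicles and organelles and motors of cilia and signalling, had 24 of 26 genes tested, of which limma called 0 at either dose, with or without 28 µM replicate 4. Their median change was 0.14 at 42 µM, with a range from −0.28 to 0.74, and the changes of largest size were those of KIF5C (0.74), KIF27 (0.65), KIF3C (0.51) and KIFC2 (0.37). The light chains and adaptors had 0 of 6 called and a median of 0.23. KIFAP3, which links the kinesin-2 motors to cargo, had a change of 0.54 (SE 0.12, adjusted p = 0.0285 by limma), under the limit of 0.6, and KLC1 changed by 0.37, KLC3 by 0.29 and KIFBP by −0.27. The cell cycle homology region was found in 1 of 26 promoter windows of the transport and other kinesins (3.85%), 0 of 4 of the adaptors, 4 of 7 of the other mitotic kinesins (57.1%), 5 of 16 of the tubulins (31.2%), 5 of 19 of the regulators (26.3%) and 0 of 20 of dynein and dynactin, beside 8 of the 10 kinesins described here.

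Proteins that work with the mitotic kinesins in the spindle and midzone were taken as partners. Of 26 tested partners, 16 were called lower and 0 higher at 42 µM, against 1.23% and 1.41% of all probes. Their median change was −1.01, and 25 were below 0, where 52.5% of all probes were. INCENP, the scaffold of the chromosomal passenger complex, changed by −1.50 (SE 0.29, adjusted p = 0.0174), and CDCA8, another of its subunits, by −1.36 (SE 0.22, adjusted p = 0.0126). The kinase PLK1 changed by −1.44 (SE 0.25, adjusted p = 0.0141) and GTSE1, a microtubule-binding protein that restrains KIF2C, by −1.28 (SE 0.21, adjusted p = 0.0131), all by limma. At 28 µM 0 partners were called with all arrays (0% of all probes) and 15 without replicate 4 (0.84% of all probes). The homology region was found in 16 of 28 promoter windows of the partners (57.1%), some genes having more than 1 window.

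Transcriptional regulators of these genes, the DREAM, MuvB and E2F proteins, had 1 of 14 called lower and 0 higher, with a median of −0.26. Of all probes 1.23% were called lower. The called gene was E2F2 (−1.17, SE 0.28, adjusted p = 0.0394 by limma). FOXM1 (−0.88, adjusted p = 0.143), MYBL2 (−0.85, adjusted p = 0.248) and E2F1 (−0.77, adjusted p = 0.112) missed the threshold in limma. For the tubulins, the track that the motors walk on, the counts were 0 lower and 0 higher of 11, with a median of −0.47. TUBB2B changed by 1.01 (SE 0.55), TUBA1C by −0.68 (SE 0.17), TUBA1A by −0.66 (SE 0.37) and TUBB3 by −0.65 (SE 0.25), none of them called. Cytoplasmic dynein and dynactin, the minus-end motor and its activator, had 0 of 13 called and a median of 0.075. DYNC1H1, its heavy chain, changed by 0.52, NDE1 by −0.38, DYNLL1 by −0.28 and DCTN2 by 0.24. At 28 µM 0 genes of these 3 lists were called, also without replicate 4. At 42 µM the fit without that array called 19 partners, 2 other mitotic kinesins, 2 regulators, 1 tubulin and 0 dynein or dynactin genes lower. In that fit 1.64% of all probes were called lower.

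**Figure D5:**
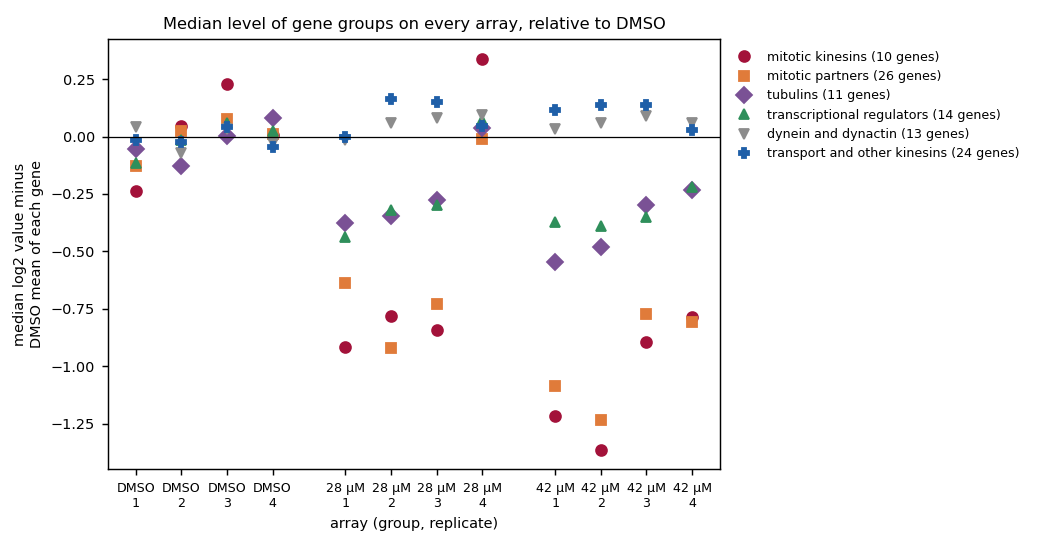
Median over the genes of a list of the log2 value minus the DMSO mean of the gene (vertical axis), on each of the 12 arrays (horizontal axis). The mitotic kinesins lie between −1.36 and −0.78 at 42 µM and at 0.34 on 28 µM replicate 4, the partners lie between −1.23 and −0.78 at 42 µM and at −0.009 on 28 µM replicate 4, and the transport and other kinesins lie between −0.045 and 0.165 on all 12 arrays.

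The genes whose values over the 12 arrays were most like the mean of the 10 kinesins were found by the root mean square difference of log2 values from their DMSO means, among 24132 genes. They were NUSAP1 (0.10), ERCC6L (0.11), ARHGAP11A (0.11), ANLN (0.12), TPX2 (0.13), CSRP2 (0.14), CA2 (0.15) and CPM (0.15), where the median of all genes was 0.76. The 10 kinesins themselves had 0.14 (KIF2C) to 0.32 (KIF14). Among the 8, NUSAP1 bundles spindle microtubules, ANLN organises the contractile ring, and TPX2 activates AURKA at the spindle. ERCC6L is a DNA translocase on chromatin bridges and ARHGAP11A a regulator of RhoA. CSRP2 is a LIM domain protein, CA2 a carbonic anhydrase and CPM a carboxypeptidase. Their changes at 42 µM ran from −1.11 (CA2) to −0.98 (CPM), and 6 of 8 were called lower, all but ERCC6L and TPX2. Likeness in this sense was fixed by the values that are compared and has no test.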

How the data were processed

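RNA of HuH-7 cells in 3 groups of 4 was measured on 12 Agilent 1-colour arrays, scanned on 1 day. The authors deposited the scanner output with the mean intensity and local background intensity of every spot, and a table of log2 values made with Edwards background correction and quantile normalization. The intensities were processed again in that way with limma 3.58.1 in R 4.3.3 after control spots and outlier spots had been left out, and the spots of a probe were averaged. Of 41000 gene probes, 33467 were tested, each detected above background on 2 or more of the 4 arrays of some group. The test was made with lmFit and eBayes on all 12 arrays, two-sided, with Benjamini-Hochberg adjustment over all probes of a comparison. A call needs an adjusted p below 0.05 and a log2 change of at least 0.6. For lists the brightest probe of a gene was used, and a gene of the 10 is called by any probe. The code was tested on simulated data.

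The genes, lists and tests were chosen with earlier results of these data known. Named are all probes of the 10 genes, all other mitotic kinesins, up to 4 genes of largest change from each other list (mitotic partners, transport and other kinesins, adaptors, regulators, tubulins, dynein), and the 8 genes most like the 10. The number of arrays limits the precision. Alternatives were normexp with an offset of 50, 2 scalings to the 75th percentile, other filters, the authors' values, slide or replicate blocks, array weights, the groups compared alone, other limits on the change, and each array left out. Promoters were searched in RefSeq windows of GRCh38.p14, probe positions are on hg19, and figures were drawn with Python 3.11.15 and matplotlib 3.10.9.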

Additional observations from a re-analysis of the deposited data

Results flagged for a closer look

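KIF20A at 28 µM had 1 array apart from the others. Replicate 4 read 10.49, where the other 3 arrays read 8.70, 8.98 and 8.96, and its gap to the nearest of them was 0.845 of the range of the group. Of 33 groups of values looked at (11 probes in 3 groups) this was the single one in which an array stood apart by Dixon's rule, and chance alone gives about 1 in 20. The same array was the highest of its group in 10 of the 11 probes.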

How the results depend on the processing

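At 42 µM against DMSO, 6 of 10 genes were called lower. The count was 0 with the slide as a block, 10 with array weights and 10 with the replicate block, where 1, 560 and 590 probes of the whole array were called lower, against 413. Leaving out 1 array at a time gave 0 to 10, with 0 to 550 probes. The other alternatives gave 4 (processed signal, 342 probes) to 9 (only the groups compared, 534 probes), with 8 for the slide as a random block. At 28 µM the count was 0 under every alternative that kept all arrays and 0 to 5 when 1 array was left out, with 5 only without 28 µM replicate 4. No change of a probe turned its sign in any alternative. The median change of the 11 probes ranged from −1.36 to −1.04 at 42 µM, from −0.78 to −0.42 at 28 µM and from −0.66 to −0.29 between the doses. No scaling moved the median of all probes by more than 0.037.

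Whether the replicate numbers pair the arrays was not settled. Deviations from the group means of arrays with the same number correlated from −0.46 to 0.62. The 0.62 was between replicate 1 of 28 µM and replicate 1 of 42 µM, which also shared a slide. The next highest such correlation was 0.41. Of the 12 arrays, 5 correlated best with an array of their own number, and the count to expect by chance was not computed. With the replicate block 10 of the 10 genes were called lower at 42 µM, against 6 without it. This block changed no call of these genes at 28 µM or between the doses. The slide block, the replicate block and each fit of 11 arrays leave fewer residual degrees of freedom, and their counts at 42 µM ran from 0 to 10. The cause of the differences between settings was not tested. KIF14, KIF20B and the KIF11 probe A_23_P52278 were the closest to local background, and the alternatives with all arrays put the change of KIF14, −0.88, between −1.32 and −0.79.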
